A study of Sus scrofa with 36 samples.

Results

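The insulin-like growth factor (IGF) axis was followed in the cerebellum of piglets as a list of 10 genes, comprising the ligands IGF1 and IGF2, the receptors IGF1R, IGF2R and INSR, the binding proteins IGFBP2, IGFBP3, IGFBP4 and IGFBP5, and the adaptor IRS1. The genes were chosen by name, with earlier results of these data known. An Ensembl identifier was paired with 8 of the 10 genes, all 8 passed the low-count filter, and they were read among 31907 gene identifiers, of which 15356 were tested. IGF2 and IGFBP3 were not analysed here.

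Cerebellar bulk RNA came from 36 piglets in a 2 × 2 design of diet and birth weight, with 1 library per piglet and 9 piglets per group. All piglets were term-born crossbred pigs that received formula from 3 days of age for 3 weeks, whose fat was either bovine milk fat (MILK) or vegetable oil (VEG). Normal birth weight (NBW) piglets were compared with intrauterine growth restricted (IUGR) piglets, which gave the groups MILK-NBW, MILK-IUGR, VEG-NBW and VEG-IUGR. Growth restriction was spontaneous and was assigned on the day of birth from a low weight and an altered head shape, so its degree and cause may vary between piglets. Littermates were present according to the methods, but no label gives the litter, so it entered no model.

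IGF1 and IGF2 are secreted growth factors that signal mainly through IGF1R, a receptor tyrosine kinase closely related to the insulin receptor INSR. IGF2R has no kinase and carries bound IGF2 to lysosomes. The IGFBP family holds the ligands in the extracellular space and prolongs, restricts or locates their action, and IRS1 is a docking protein that links the activated receptors to the PI3K-AKT and RAS-MAPK cascades. In the developing cerebellum the axis is known for supporting growth and survival of Purkinje cells and granule neurons and for myelination.

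Libraries were compared before the genes were. The 33 libraries used for the tests held 15516541 to 23027502 counts on genes (median 18025540). Of their reads, 26.7 to 30.5% were not assigned to a gene by the read counting, for any reason. These are called reads without a gene below. Piglet 202 (VEG-NBW), piglet 210 (VEG-IUGR) and piglet 213 (MILK-NBW) had 43.6, 64.3 and 31.5% of reads without a gene. Each was the highest of its group. The study excluded a library from each of these groups for low RNA integrity, without naming the piglet. These piglets were therefore left out here, which left 9 piglets in MILK-IUGR and 8 in each other group. All 6 granule neuron markers and the 5 Purkinje cell markers that could be matched were detected in every library, with summed levels of 2776 to 4529 and 2017 to 4216 CPM, the count scaled to a common library total. The 120 pairs of libraries within a group differed by at least 6.97 times the chi-square expected from sampling noise per degree of freedom. No library was thus a copy of another in its group. Each counted as a separate sample because it came from a different piglet. Levels are given as CPM scaled by the trimmed mean of M values (TMM), and they are compared between piglets and not between genes, because gene length was not available.

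The 8 members with an Ensembl identifier are spread over 5 chromosomes in the RefSeq annotation of Sscrofa11.1, and all are protein-coding. IGF1 (ENSSSCG00000000857) lies at chr5:81762027-81909253, IGF1R (ENSSSCG00000030560) at chr1:137383623-137691038, IGF2R (ENSSSCG00000004044) at chr1:7369485-7472480 and INSR (ENSSSCG00000013566) at chr2:71797209-71939923. IGFBP4 (ENSSSCG00000017472) lies at chr12:21966524-21980043 and IRS1 (ENSSSCG00000025729) at chr15:128245846-128307321. IGFBP2 (ENSSSCG00000035392) at chr15:118822092-118850985 and IGFBP5 (ENSSSCG00000025924) at chr15:118861816-118877787 are neighbours, with 10830 bp and no other RefSeq gene between them.

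No member of the axis was called between IUGR and NBW piglets, and the estimates were small against the spread between piglets. None of the 8 members passed an adjusted p under 0.05 (edgeR quasi-likelihood test, Benjamini-Hochberg over all 15356 genes), and none had an unadjusted p under 0.05. Over all tested genes, 0% were called and 2.19% (337 genes) had an unadjusted p under 0.05, and DESeq2 and limma voom likewise called 0 genes. The estimates were below 0 for 7 of the 8 members, with a median log2 fold change of -0.07 beside 0.00 for all tested genes. Of all tested genes, 49.6% had an estimate above 0. Several members varied together over the piglets, so these signs are not independent. The smallest unadjusted p was 0.226, for IGFBP5. In bulk tissue, fewer cells of a type and less RNA per cell cannot be told apart.

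**Figure D1:**
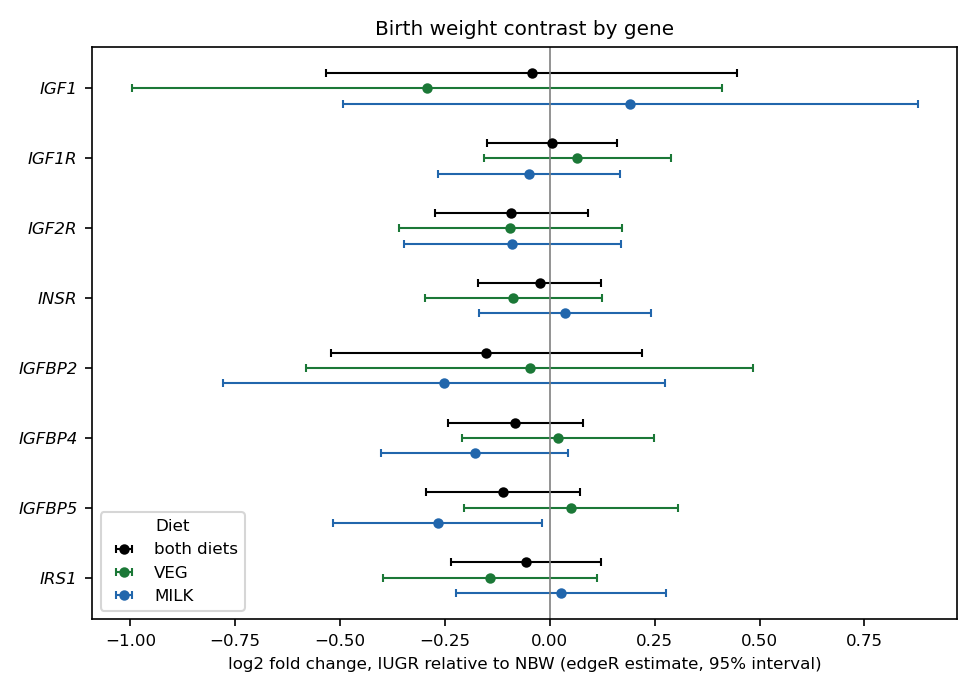
Log2 fold change of IUGR relative to NBW piglets (x axis) for the 8 genes (y axis), as edgeR estimates with 95% intervals over both diets (black), within VEG (green) and within MILK (blue). All intervals over both diets span 0, and the only interval that does not is that of IGFBP5 within MILK, from -0.52 to -0.02.

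IGF1, the ligand that could be measured, was close to the limit of detection. Its level was 0.281 to 1.11 CPM (median 0.671) in VEG-NBW, 0.281 to 0.856 (median 0.507) in VEG-IUGR, 0.057 to 1.22 (median 0.598) in MILK-NBW and 0.423 to 1.28 (median 0.511) in MILK-IUGR. These levels correspond to 1 to 21 counts per library with a median of 10. All 4 groups overlapped, and the lowest library, piglet 208 of MILK-NBW, held a single count.

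The mean IGF1 level was 0.611 ± 0.273 CPM (SD, n = 17) in IUGR and 0.624 ± 0.305 CPM (SD, n = 16) in NBW piglets. The log2 fold change was -0.04 (SE 0.24), with a 95% interval from 0.691-fold to 1.36-fold. The coefficient of variation over the 33 piglets was 46.1%, where counting error alone would give 30.1%.

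IGF1R, the signalling receptor for the ligands, was measured with 331 to 701 counts per library. It spanned 19.6 to 35.7 CPM (median 30.8) in VEG-NBW, 23.5 to 40.2 (median 29.6) in VEG-IUGR, 27.4 to 33.3 (median 30.6) in MILK-NBW and 20.2 to 32.8 (median 30.7) in MILK-IUGR. The 4 medians lay within the range of every group. The mean was 29.7 ± 4.36 CPM (SD, n = 17) in IUGR and 29.5 ± 4.39 CPM (SD, n = 16) in NBW piglets, with a log2 fold change of 0.01 (SE 0.08). Its 95% interval, from 0.902-fold to 1.12-fold, is among the narrowest of the axis.

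INSR, the insulin receptor, had 263 to 564 counts per library. It spanned 16.6 to 27.2 CPM (median 21.6) in VEG-NBW, 17.4 to 26.3 (median 20.1) in VEG-IUGR, 16.6 to 25.9 (median 20.5) in MILK-NBW and 16.0 to 24.8 (median 21.7) in MILK-IUGR. The ranges of the groups nearly coincided. The mean was 21.1 ± 2.81 CPM (SD, n = 17) in IUGR and 21.4 ± 3.25 CPM (SD, n = 16) in NBW piglets, and the log2 fold change was -0.02 (SE 0.07, 95% interval 0.889-fold to 1.09-fold).

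IGF2R, the receptor that clears IGF2, spanned 86.1 to 168 CPM (median 115) in VEG-NBW, 90.5 to 155 (median 108) in VEG-IUGR, 107 to 131 (median 120) in MILK-NBW and 57.2 to 135 (median 113) in MILK-IUGR. The lowest of all 33 piglets was piglet 207 of MILK-IUGR at 57.2 CPM, and the other MILK-IUGR piglets lay within the range of VEG-NBW. The mean was 113 ± 22.1 CPM (SD, n = 17) in IUGR and 119 ± 19.5 CPM (SD, n = 16) in NBW piglets. The log2 fold change was -0.09 (SE 0.09, 95% interval 0.827-fold to 1.06-fold).

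**Figure D2:**
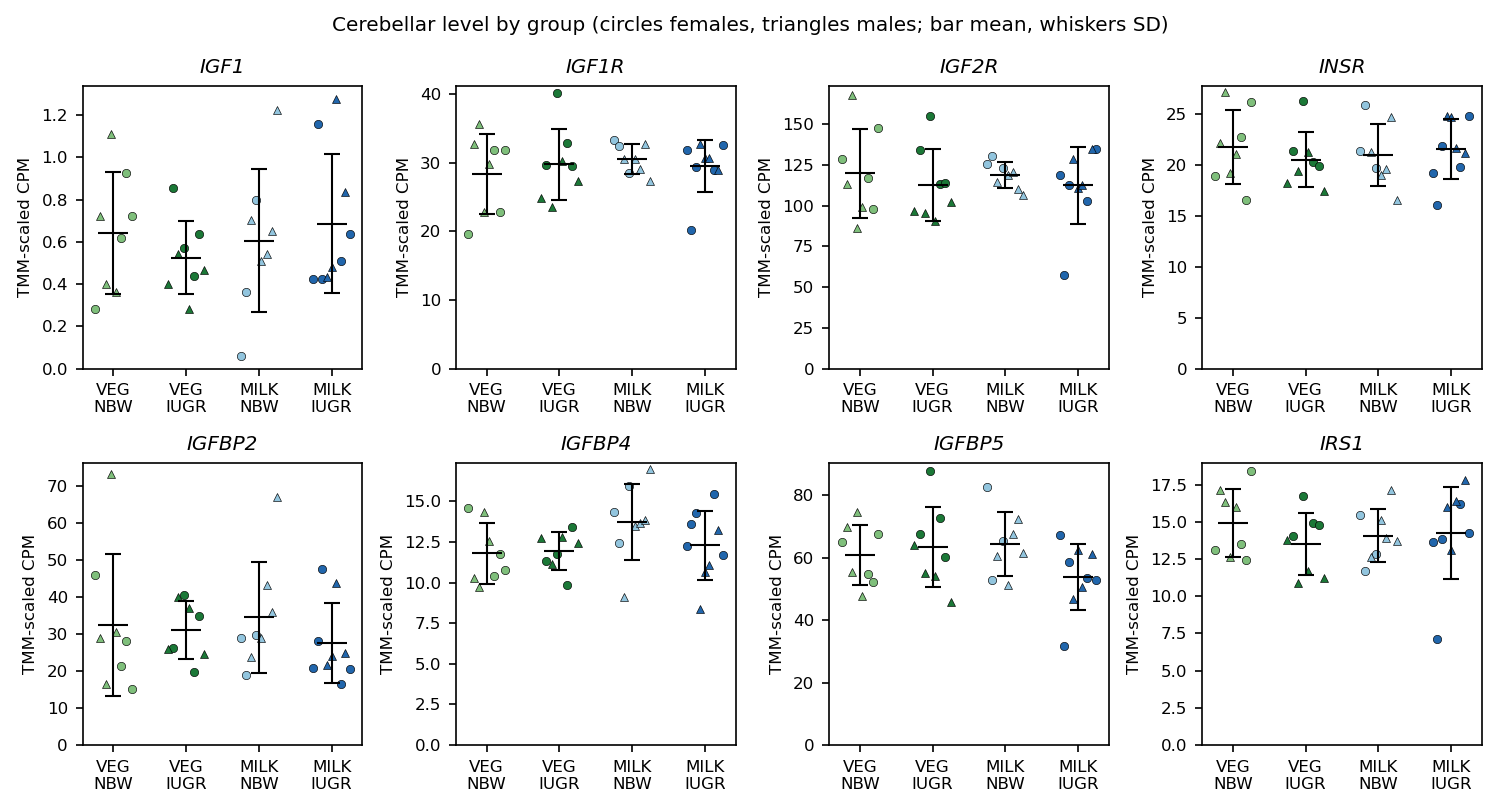
TMM-scaled CPM (y axes, from 0) of the 8 genes in each piglet by group (x axes), with circles for females, triangles for males, a bar for the mean and whiskers for the SD of 8 or 9 piglets. The groups overlap in every panel, IGFBP2 spreads from 15.2 to 73.4 CPM, and piglet 207 is the lowest point of MILK-IUGR for IGF1R, IGF2R, INSR, IGFBP5 and IRS1.

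IGFBP2, a binding protein abundant in developing brain and in the tissues that line it, was the most variable of the members with over 100 counts in every library. It spanned 15.2 to 73.4 CPM (median 28.5) in VEG-NBW, 19.7 to 40.4 (median 30.5) in VEG-IUGR, 18.9 to 67.0 (median 29.3) in MILK-NBW and 16.6 to 47.5 (median 24.0) in MILK-IUGR. The highest piglets were piglet 216 of VEG-NBW and piglet 234 of MILK-NBW, and each stood above every IUGR piglet. The coefficient of variation was 42.8% over 33 piglets, where counting error would give 4.22%.

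The mean IGFBP2 level was 29.2 ± 9.45 CPM (SD, n = 17) in IUGR and 33.5 ± 16.7 CPM (SD, n = 16) in NBW piglets. The log2 fold change was -0.15 (SE 0.18, 95% interval 0.696-fold to 1.16-fold), the most negative value of the axis. It depended on single piglets, since it was -0.05 without piglet 216, -0.07 without piglet 234 and -0.08 without piglet 200, and it was 0.03 with all 36 libraries.

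IGFBP4, which binds IGFs until it is cut by the protease PAPPA, spanned 9.74 to 14.6 CPM (median 11.3) in VEG-NBW, 9.83 to 13.4 (median 12.1) in VEG-IUGR, 9.12 to 17.0 (median 13.7) in MILK-NBW and 8.37 to 15.4 (median 12.2) in MILK-IUGR. The mean was 12.1 ± 1.70 CPM (SD, n = 17) in IUGR and 12.8 ± 2.28 CPM (SD, n = 16) in NBW piglets. The log2 fold change was -0.08 (SE 0.08, 95% interval 0.845-fold to 1.06-fold).

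IGFBP5, a binding protein held by extracellular matrix and cell surfaces, spanned 47.8 to 74.5 CPM (median 60.3) in VEG-NBW, 45.7 to 87.7 (median 62.3) in VEG-IUGR, 51.3 to 82.8 (median 63.5) in MILK-NBW and 31.6 to 67.4 (median 53.5) in MILK-IUGR. MILK-IUGR had the lowest median and the lowest piglet, and its range overlapped with those of the other groups. Over both diets the mean was 58.4 ± 12.4 CPM (SD, n = 17) in IUGR and 62.6 ± 9.76 CPM (SD, n = 16) in NBW piglets. The log2 fold change was -0.11 (SE 0.09, 95% interval 0.814-fold to 1.05-fold).

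IRS1, the docking protein below the receptors, spanned 12.4 to 18.4 CPM (median 14.7) in VEG-NBW, 10.9 to 16.7 (median 13.9) in VEG-IUGR, 11.7 to 17.2 (median 13.8) in MILK-NBW and 7.13 to 17.8 (median 14.2) in MILK-IUGR. Piglet 207 was again the lowest. The mean was 13.9 ± 2.61 CPM (SD, n = 17) in IUGR and 14.5 ± 2.03 CPM (SD, n = 16) in NBW piglets, with a log2 fold change of -0.06 (SE 0.09, 95% interval 0.849-fold to 1.09-fold).

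Birth weight was then compared within each diet. Within VEG no member had an unadjusted p under 0.05, beside 2.29% of all genes (351) and 0% called at an adjusted p under 0.05. The VEG estimates ran from -0.29 (SE 0.35) for the sparse IGF1 to 0.07 (SE 0.11) for IGF1R, with IRS1 at -0.14, IGF2R and INSR at -0.09, IGFBP2 at -0.05, IGFBP4 at 0.02 and IGFBP5 at 0.05. Within MILK the only member at an unadjusted p under 0.05 was IGFBP5, beside 6.24% of all genes (958) and 0% called. The log2 fold change of IGFBP5 was -0.27 (SE 0.12, unadjusted p = 0.036), and its adjusted p was 0.771 by edgeR. MILK-IUGR held 53.9 ± 10.6 CPM (SD, n = 9) and MILK-NBW 64.3 ± 10.3 CPM (SD, n = 8), and in 75% of the 72 pairs of piglets the MILK-IUGR piglet was the lower. The other MILK estimates were -0.25 (SE 0.26) for IGFBP2, -0.18 (SE 0.11) for IGFBP4, -0.09 for IGF2R, -0.05 for IGF1R, 0.03 for IRS1, 0.04 for INSR and 0.19 (SE 0.34) for IGF1.

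An exact permutation test of the log2 levels of IGFBP5 within MILK gave p = 0.061 (two-sided, 1 of 16 such tests over 8 genes and 2 diets, none under 0.05). The permutation took no account of sex, which was a covariate in edgeR. MILK-IUGR held 5 females and 4 males, and MILK-NBW held 3 females and 5 males. Without piglet 207, the lowest at 31.6 CPM, MILK-IUGR held 56.7 ± 6.93 CPM (SD, n = 8), the log2 fold change was -0.20 (unadjusted p = 0.080) and the exact permutation p was 0.107. Within VEG the IGFBP5 estimate was 0.05 (SE 0.13). The test of the difference between the diets gave an interaction of -0.32 (SE 0.17) with an unadjusted p of 0.077 and an edgeR adjusted p of 0.784. No member had an unadjusted p under 0.05 for the interaction, beside 6.09% of all genes (935) and 0% called. The interaction was 0.48 (SE 0.48) for IGF1, -0.20 for IGFBP2 and IGFBP4, 0.17 for IRS1, 0.12 for INSR, -0.12 for IGF1R and 0.01 for IGF2R.

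The fat source also left the axis without a called member. For MILK relative to VEG, 0% of all genes were called and 4.26% (654) had an unadjusted p under 0.05, against 0 of the 8 members. Their median log2 fold change was 0.01, beside 0.00 for all genes. The smallest p was that of IGFBP4, with 13.0 ± 2.29 CPM (SD, n = 17) in MILK and 11.9 ± 1.503 CPM (SD, n = 16) in VEG, and its log2 fold change was 0.13 (SE 0.08, unadjusted p = 0.121). IGF1 had 0.13 (SE 0.24), IGF1R 0.05, INSR 0.01, IGF2R 0.002, IRS1 -0.005, IGFBP2 -0.06 and IGFBP5 -0.08.

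Within NBW piglets, where 0% of genes were called and 6.67% (1025) had an unadjusted p under 0.05, the IGFBP4 estimate was 0.23 (SE 0.11, unadjusted p = 0.051). Its adjusted p was 0.738, and with limma voom the unadjusted p was 0.047. The other 7 estimates lay between -0.12 for IGF1 and 0.11 for IGF1R. Within IUGR piglets, where 0% were called and 3.9% (599) had an unadjusted p under 0.05, the estimate closest to the threshold was that of IGFBP5, at -0.23 (SE 0.12, unadjusted p = 0.065). It was -0.16 (unadjusted p = 0.159) without piglet 207. The other 7 lay between -0.16 for IGFBP2 and 0.37 (SE 0.34) for IGF1. The contrasts within MILK and within IUGR share the MILK-IUGR piglets, so the IGFBP5 values in both are not independent.

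Sex was compared in the same model. Of all genes, 0.163% (25) were called between males and females and 2.94% (451) had an unadjusted p under 0.05, and none of the 8 members was among either. The largest estimate was that of IGFBP2, with 34.7 ± 15.5 CPM (SD, n = 17) in males and 27.7 ± 10.05 CPM (SD, n = 16) in females, and a log2 fold change of 0.29 (SE 0.19, unadjusted p = 0.123). The other 7 lay between -0.10 for IGF2R and 0.12 (SE 0.24) for IGF1. Birth weight estimates for IGFBP2 were 0.08 (SE 0.26) in females and -0.36 (SE 0.25) in males. The test of that difference gave -0.45 (SE 0.36, unadjusted p = 0.228). No member had an unadjusted p under 0.05 for the interaction of sex and birth weight, beside 1.96% of all genes (301) and 0% called, and the other 7 estimates lay between -0.44 (SE 0.49) for IGF1 and 0.03 for INSR.

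Over the 33 piglets, IGFBP2 varied together with genes used here as markers of the meninges, the connective tissue sheets around the brain. The 3 genes whose levels followed IGFBP2 most closely over 33 piglets, among 11921 named genes with a mean of at least 1 CPM, were SLC5A5, the sodium-iodide symporter (Spearman's rank correlation, rs, 0.90), COL3A1, a fibrillar collagen (rs 0.88), and SLC13A4, a sulphate transporter (rs 0.88). SLC5A5 spanned 1.249 to 30.7 CPM, COL3A1 66.7 to 225 CPM and SLC13A4 8.54 to 69.3 CPM. These are descriptions over libraries that share tissue dissection and depth, chosen as the closest of many genes.

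The 6 meningeal fibroblast markers COL1A1, COL1A2, COL3A1, DCN, LUM and SLC6A13 were detected in every library, and none was at 0. Means were 277, 204 and 125 CPM for COL1A1, COL1A2 and COL3A1, and at most 27.4 CPM for each of the others. The sum was thus mainly collagen, and COL3A1 was also among the closest genes named above. The summed level of the 6 markers was 438 to 1183 CPM in NBW and 365 to 992 CPM in IUGR piglets, so the birth weight groups overlapped. Over 33 piglets IGFBP2 followed this sum with Pearson's r 0.80 on the log2 scale and rs 0.83. Without piglets 234 and 216, the farthest from the median sum in CPM, r was 0.73 and rs 0.79, and without piglets 217 and 207, the farthest on the log2 scale, r was 0.85. The rs was 0.90 over 16 NBW and 0.75 over 17 IUGR piglets, and 0.78 over females and 0.86 over males. By group it was 0.93 in VEG-NBW, 0.90 in MILK-NBW, 0.69 in VEG-IUGR and 0.53 in MILK-IUGR, over 8 or 9 piglets each. Piglet 216 had 1040 CPM of these markers beside 73.4 CPM of IGFBP2, and piglet 234 had 1183 CPM beside 67.0 CPM. The part of the meninges in the IGFBP2 level was not tested.

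**Figure D3:**
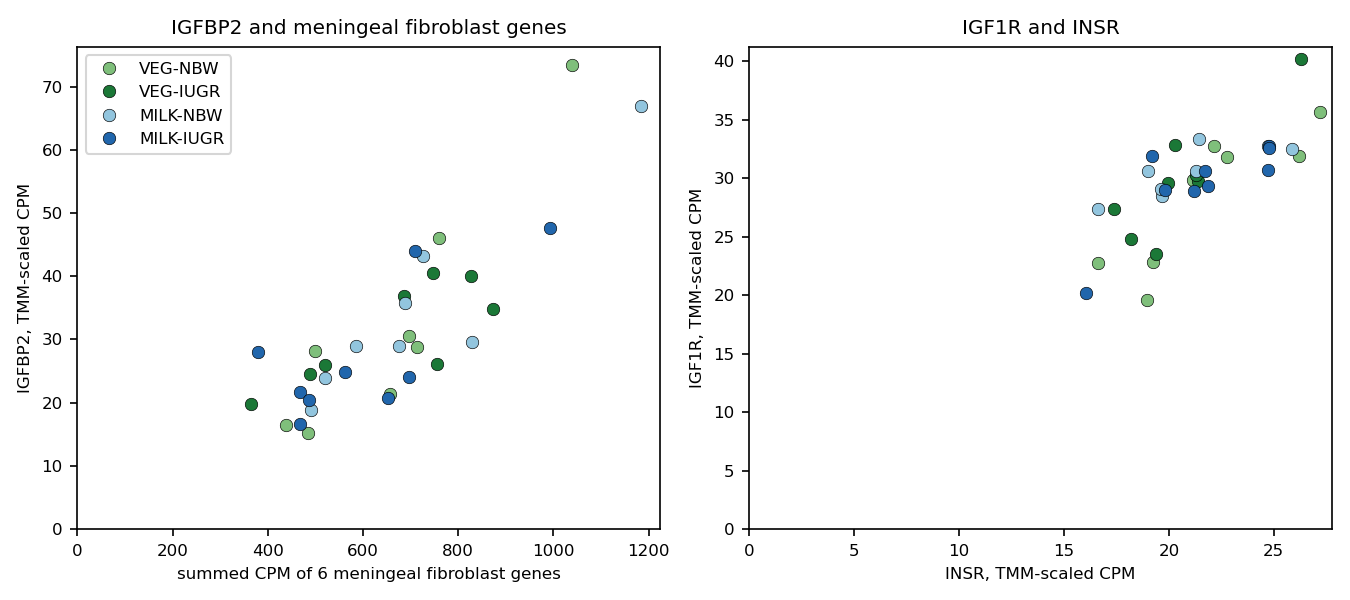
Left, IGFBP2 (y axis, TMM-scaled CPM) against the summed CPM of 6 meningeal fibroblast genes (x axis) in 33 piglets coloured by group. Right, IGF1R (y axis) against INSR (x axis) in the same piglets, both in TMM-scaled CPM. IGFBP2 is highest in piglets 216 and 234 with 1040 and 1183 CPM of meningeal genes, and IGF1R and INSR follow each other with a Spearman's rank correlation of 0.81.

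Other cell types were set beside IGFBP2 as well. Its rs with the mean log2 level of a marker list was 0.58 for red blood cells, 0.45 for mural cells and 0.35 for choroid plexus, the epithelium that makes cerebrospinal fluid. Choroid plexus markers summed to 16.9 to 358 CPM in 32 piglets and to 1683 CPM in piglet 231 of MILK-IUGR, whose IGFBP2 level was 43.9 CPM. Piglet 234, with the second highest IGFBP2 level, had the lowest choroid plexus sum at 16.9 CPM. Of the 5 choroid plexus markers matched, TTR had a mean of 80.2 CPM over a span of 1.19 to 1522 CPM. OTX2 had a mean of 63.0 CPM, and the others at most 7.05 CPM. The sum was thus mainly TTR and OTX2, and how far it follows choroid plexus content was not tested.

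IGFBP2 and its chromosomal neighbour IGFBP5 had little in common across piglets, with an rs of 0.19 and r of 0.20 over 33 piglets. IGFBP2 and IGFBP4 had an rs of 0.54 and r of 0.50, and the rs was 0.79 over NBW and 0.18 over IUGR piglets. The difference between these values was not tested. With the mean log2 level of the meningeal fibroblast list, IGFBP4 had an rs of 0.48 and IGFBP5 of 0.38, beside 0.82 for IGFBP2. The genes closest to IGFBP4 were CLEC3B, which encodes tetranectin (rs 0.73), PINK1, a mitochondrial kinase (rs 0.72), and TAGLN, a smooth muscle gene (rs 0.71). For IGFBP5 the closest were NHS (rs 0.57), TLN2 (rs 0.56) and DPP6 (rs 0.56), and for IGF1 they were MYL12A (rs 0.68), CFL2 (rs 0.67) and LRRC3B (rs 0.62).

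The receptors and IRS1 moved together from piglet to piglet. The 6 pairs among IGF1R, IGF2R, INSR and IRS1 had an rs between 0.48 and 0.81 over 33 piglets, and between 0.43 and 0.79 without piglet 207. The closest pair was IGF1R and INSR, with r 0.75 and rs 0.81, and r 0.69 without piglets 207 and 215. The rs for this pair was 0.86 over NBW and 0.73 over IUGR piglets. In MILK-IUGR the pair IGF1R and IRS1 had r 0.83 but an rs of -0.03, so that its linear relation rested on piglet 207.

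The named genes closest to IGF1R were WDFY3, an autophagy adaptor (rs 0.90), MICAL3 (rs 0.85) and EP300, a histone acetyltransferase (rs 0.83). MICAL3 (rs 0.85) and WDFY3 (rs 0.83) were also the closest to INSR, followed by IGF1R itself. IGF2R was closest to PKD1, the polycystin gene (rs 0.88), SPTB, which encodes beta-spectrin (rs 0.88), and ABCC1, an efflux transporter (rs 0.88). IRS1 was closest to NAV2 (rs 0.71), ZNF470 (rs 0.69) and SCAI (rs 0.69).

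A measure of the libraries varied together with the receptors. The share of reads without a gene, which spanned 26.7 to 30.5% in the 33 libraries, had an rs of 0.62 with IGF2R, 0.48 with INSR, 0.38 with IGF1R and 0.35 with IRS1. Its rs was -0.39 with IGFBP2 and -0.25 with IGFBP4. The number of genes detected had an rs of 0.42 with INSR, 0.38 with IGF1R, 0.32 with IGF2R and 0.05 with IRS1. With IGFBP2 it had -0.44. The total of counts on genes had an rs of -0.47 with IRS1, -0.07 with IGF2R, 0.04 with INSR and -0.02 with IGF1R. Whether the share of reads without a gene reflects RNA quality within these 33 libraries was not tested. With that share as a covariate, the birth weight estimate was -0.05 in place of -0.09 for IGF2R, 0.0033 in place of -0.02 for INSR, 0.03 in place of 0.01 for IGF1R, -0.04 in place of -0.06 for IRS1 and -0.08 in place of -0.04 for IGF1. No member was called.

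**Figure D4:**
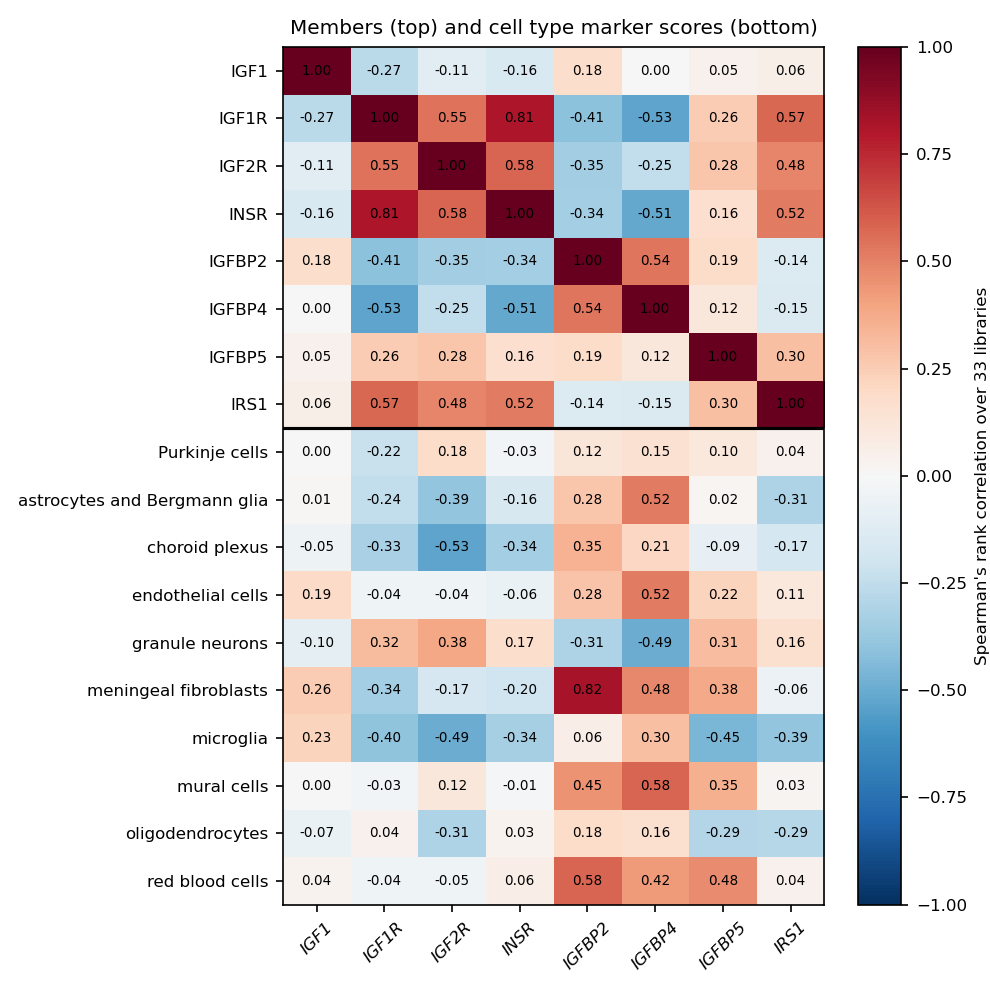
Spearman's rank correlation over 33 libraries between the 8 genes (columns) and the same genes (upper rows) or the mean log2 level of 10 cell type marker lists (lower rows), from -1 (blue) to 1 (red). IGF1R, IGF2R, INSR and IRS1 are positively related to each other, IGFBP2 has its highest value with the meningeal fibroblast list (0.82), and IGF1R and IGFBP4 are inversely related (-0.53).

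The libraries that were left out were unlike their groups in this axis, in CPM of all counts on genes. Piglet 210 had 0 counts for IGF1, IGF1R, IGF2R, IGFBP4 and IRS1 among 7936202 counts, which allows a level of up to 0.378 CPM for each (3 counts, counting error only). For IGF1 that limit lies within the range of the other VEG-IUGR piglets, 0.276 to 0.852 CPM, so its 0 does not set piglet 210 apart. For IGF1R, IGF2R, IGFBP4 and IRS1 the limit lies below the range. The same library held 803 counts of INSR, 5.04 times the median level of the other VEG-IUGR piglets, and 681 counts of IGFBP2, 2.79 times that median. IGFBP5 was present with 180 counts at 0.363 times the median. Only 6513 genes were detected in this library, beside 18635 to 19682 in the 33 libraries.

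Piglet 202 had IRS1 at 0.284 and IGF1R at 0.482 times the median of its group, whereas IGF2R and INSR were above the range of the other VEG-NBW piglets, at 1.59 and 1.39 times. Piglet 213 had IGF1R at 0.196, INSR at 0.466 and IRS1 at 0.489 times the median of the other MILK-NBW piglets. IGFBP5 was within the range of the group in both. IGFBP4 was at 0.766 times the median of its group in piglet 202 and at 0.606 times in piglet 213, below the range in both. IGF1R, IGFBP4 and IRS1 were thus below their groups in all 3 libraries, whereas IGF2R and INSR were above in some and below in others.

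**Figure D5:**
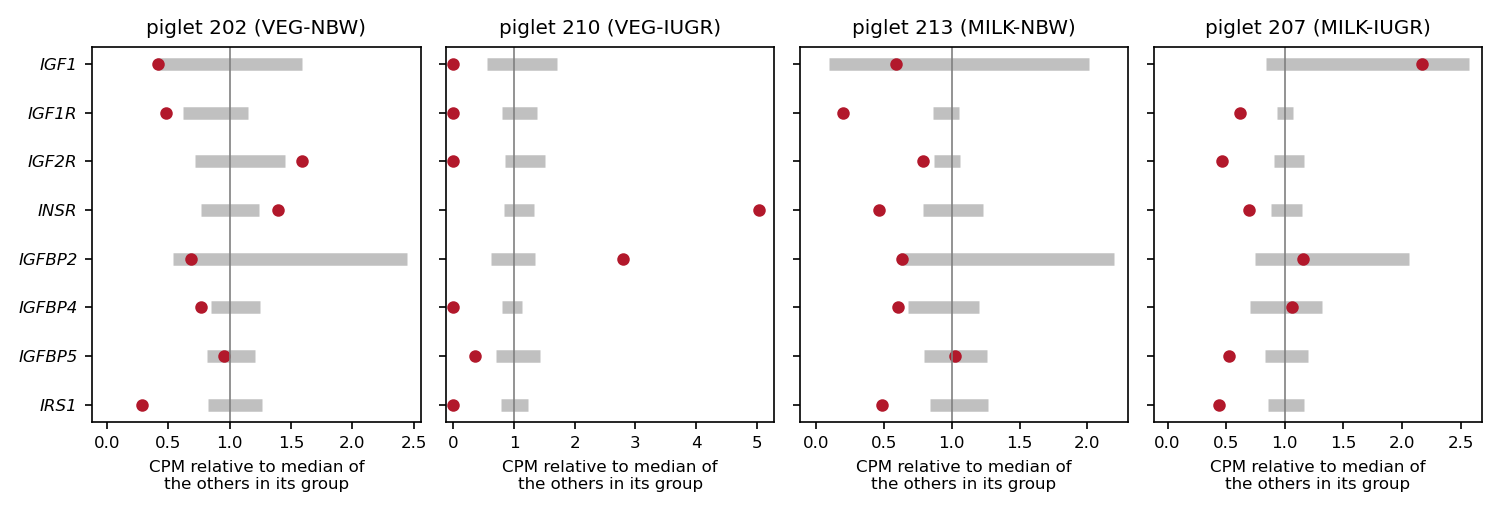
Level of the 8 genes (y axis) in piglets 202, 210, 213 and 207 (red points), as CPM relative to the median of the other piglets in the same group (x axis, linear; the vertical line marks 1), with grey bars for the range of those 8 piglets. Piglet 210 has 5 genes at 0 and INSR at 5.04, and piglet 207 lies below its group for IGF1R, IGF2R, INSR, IGFBP5 and IRS1.

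Piglet 207 of MILK-IUGR was kept, with 27.4% of reads without a gene and no library of its group excluded in the study. It was below the other 8 piglets of its group for IGF2R (0.462 times the median), IRS1 (0.442 times), IGFBP5 (0.527 times), IGF1R (0.617 times) and INSR (0.692 times). IGF1, IGFBP2 and IGFBP4 were within the range of the group. With all 36 libraries, the birth weight estimate for INSR was 0.19 in place of -0.02, and 0 members were called. Without piglet 207 the count of called members was also 0.

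The rest of the pathway was read from 7 lists with 81 genes, of which 75 had an identifier and 69 were tested. None was called for birth weight, diet, their interaction or sex. For birth weight, 1 of the 69 genes was higher and 0 were lower at an unadjusted p under 0.05, beside 2.19% of all tested genes, so the lists held no more such genes than the background. Their median log2 fold change was 0.00. The gene was IGF2BP3, an RNA-binding protein named for binding IGF2 mRNA, with 6.56 ± 1.24 CPM (SD, n = 17) in IUGR and 5.74 ± 1.01 CPM (SD, n = 16) in NBW piglets. Its log2 fold change was 0.20 (SE 0.10), with an edgeR adjusted p of 0.9996.

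Among the other binding proteins and the proteases that release IGFs from them, 7 of 9 estimates for birth weight were below 0, with a median of -0.06. Of all tested genes, 49.6% had an estimate above 0. IGFALS, which stabilises circulating IGF complexes, had 4.37 ± 1.33 CPM (SD, n = 17) in IUGR and 5.13 ± 1.91 CPM (SD, n = 16) in NBW piglets, at a log2 fold change of -0.24 (SE 0.15). IGFBP7 and HTRA1, a protease of the extracellular matrix, had estimates of 0.01 (SE 0.05) and -0.01 (SE 0.07). PAPPA, the protease that cuts IGFBP4, had an estimate of -0.24 (SE 0.19) for birth weight and of 0.56 (SE 0.19, unadjusted p = 0.007) for MILK relative to VEG. Its adjusted p for diet was 0.985 by edgeR, and no library held more than 32 counts of PAPPA. For diet, 2 of the 69 pathway genes tested were higher in MILK and 2 were lower at an unadjusted p under 0.05 by edgeR. The share over all tested genes was 4.26% (654). IGFBP1 and the insulin gene INS reached at most 1 count in any library and were not tested.

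GHR, the growth hormone receptor, was the only gene tested of the other ligands and receptors, with a birth weight estimate of -0.02. Of 12 adaptors and inhibitors, none had an unadjusted p under 0.05 for birth weight, and SOCS3, an inhibitor of cytokine signalling, had the largest estimate at 0.27 (SE 0.14). The PI3K-AKT list (18 genes), the mTOR list (16 genes) and the RAS-MAPK list (11 genes) had medians of -0.01, 0.00 and 0.01 for birth weight. No gene of these 3 lists had an unadjusted p under 0.05 for birth weight.

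For the interaction of diet and birth weight, 6 of the 69 pathway genes had an unadjusted p under 0.05, beside 6.09% of all genes. RICTOR, a core subunit of mTOR complex 2, had the smallest p, with an interaction of 0.37 (SE 0.11, unadjusted p = 0.0021) and an adjusted p of 0.784 by edgeR. MAPK3, which encodes the kinase ERK1, had an interaction of -0.36 (SE 0.12), and AKT1S1, a subunit of mTOR complex 1, had -0.33 (SE 0.14). RPS6KB1, MAP2K2 and SH2B1 were the other 3, at 0.18, -0.21 and -0.18. None of these differences passed the test over all genes.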

How the data were processed

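The authors isolated total RNA of the cerebellum with a lipid tissue kit and had paired-end libraries sequenced. The submitters' processing notes name Trim Galore, HISAT2, HTSeq and DESeq2 and the build Sscrofa11.1, while versions, annotation release and strand setting are not given in the sources used here. The deposited files hold raw read counts per Ensembl gene and 5 rows of reads not assigned to a gene, which were kept out of library sizes. Whether reads of genes that overlap on opposite strands were kept apart is therefore unknown.

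Groups and sex came from the labels. The study excluded libraries for their RNA integrity, which its text does not name. Here piglets 202, 210 and 213 were left out because of their share of reads without a gene. The quasi-likelihood test of edgeR 4.0.16 was run in R 4.3.3 after TMM scaling and filterByExpr (minimum count 10), with sex as covariate. Birth weight and diet were tested in an additive model, the interaction and contrasts between groups in a model of the 4 group means. P-values were adjusted by Benjamini-Hochberg over 15356 genes. Correlations used log2 CPM with a prior count of 2. Leaving out the piglets farthest in the CPM sum of meningeal genes was chosen after seeing the data. Alternatives included DESeq2 1.42.0 and limma 3.58.1 voom. The script was tested on simulated data. Members of the axis were named by the list and, for likeness, the 3 named genes with the highest Spearman's rank correlation. Pathway genes were named where their unadjusted p for birth weight was under 0.05 (at most 8), and the others after their values were seen. The members and lists were chosen with earlier results of these data known. P-values measure the spread between piglets, with littermates treated as independent.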

Additional observations from a re-analysis of the deposited data

Results flagged for a closer look

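Levels of the 8 genes were checked in the 4 groups for a piglet that stands far from the others, by the gap to the nearest piglet divided by the range of the group (against Dixon's 95% critical value). Of 32 combinations of gene and group, 4 held such a piglet, where chance gives about 1 in 20. Piglet 207 of MILK-IUGR accounted for 3 of them, with 20.2 CPM of IGF1R, 57.2 CPM of IGF2R and 7.13 CPM of IRS1, each the lowest of its group. These genes varied together over the piglets, so the 3 are not independent. The count of 4 can therefore not be weighed against that rate. Piglet 209 of VEG-IUGR stood apart as the highest of its group for INSR, at 26.3 CPM.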

How the results depend on the processing

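No alternative called a member, and birth weight, diet, their interaction, birth weight within VEG and diet within IUGR called 0 genes under each alternative run. The study reported interactions of diet and birth weight for CHEK2, TPRKB, SLC19A3 and PLA2G2E, none of which is a member. The reason for this difference was not tested. For birth weight within MILK, 1 gene, which was no member, was called with DESeq2, its size factors in edgeR, voom, an adjusted p under 0.1, at least 10 counts in every library, without sex and without piglet 207. For diet within NBW, DESeq2 called 2 genes, and voom and the fit without piglet 207 called 1 each. For sex, 7 genes were called with at least 10 counts in every library.

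Signs were compared for the 8 members in birth weight, diet and their interaction, which gave 24 main estimates. Under the alternatives the sign was kept in 202 cases and turned in 19, all of these 19 without a call. Contrasts within a diet or a birth weight and those of sex were not in this count. For birth weight these were IGF1 with voom (0.134), INSR with all 36 libraries (0.1918), voom (0.0237) and the share of reads without a gene as covariate (0.0033), and IGFBP2 with all 36 libraries (0.0317). For diet they were IGF1 with voom (-0.0907), IGF2R with size factors (-0.0004), DESeq2 (-0.0005) and without sex (-0.0055), INSR with all 36 libraries (-0.2796), and IRS1 with all 36 libraries (0.0772), without piglet 207 (0.0382), voom (0.0154) and the covariate (0.0133). For the interaction they were IGF1R (0.1214), INSR (-0.2191) and IGFBP4 (0.0163) with all 36 libraries, and IGF2R with voom (-0.0195) and the covariate (-0.1542). The cause was not tested. With all 36 libraries the median log2 fold change of all genes was itself 0.14 for the interaction.

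Leaving out each piglet in turn, the birth weight estimate ranged from -0.151 to 0.042 for IGF1, from -0.0306 to 0.033 for IGF1R and from -0.0478 to 0.002 for INSR, and the other 5 kept their sign. Single piglets moved these 5 by over 1.5 times as well: IGF2R to -0.05 (without 207 or 215), IGFBP4 to -0.05 (225 or 234), IGFBP5 to -0.07 (207 or 208), IRS1 to between -0.02 and -0.04 (204, 207, 211, 227 or 229) and IGFBP2 to between -0.05 and -0.08 (200, 216 or 234). No such fit called a gene, and 269 to 454 genes had an unadjusted p under 0.05. No paired analysis was possible because the labels carry no replicate numbers that pair piglets. Among the members, counting error was largest for IGF1, at 1 to 21 counts per library.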
